A study of Homo sapiens with 6 samples.

Results

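The DSCAM to MX1 locus on the long arm of chromosome 21 comprises 7 protein-coding genes, PCP4, DSCAM, BACE2, FAM3B, MX2, MX1 and TMPRSS2, in order from the centromeric to the telomeric side. They were chosen by name, out of 20007 protein-coding genes of GENCODE 44, because a domain of H3K9me3 lies over the centromeric members and ends before the interferon-induced genes MX2 and MX1. The domain positions in these same libraries therefore chose the members, and the place of each member relative to the domain is given as a description, without a test. The libraries are H3K9me3 ChIP-seq of MCF10.DCIS.com, a human breast line with oncogenic RAS that serves as a model of ductal carcinoma in situ. Control monolayers carried the empty vector pSLIK-neo-EV. RAB5A monolayers carried pSLIK-neo-RAB5A, which expresses the endosomal GTPase RAB5A from a doxycycline-inducible promoter and sets densely packed, jammed monolayers flowing. Both lines were lentivirally infected and selected with an antibiotic, and the time of induction for ChIP-seq is not given in the sources used here. Each condition was assayed with the antibody ab176916 (replicate 1) and the antibody ab8898 (replicate 2), so that n = 2 libraries per condition. The replicate error includes the difference between antibodies, and no source states whether the libraries came from separate cultures. Each condition has 1 input sample, so any effect of the input on the calls cannot be told apart from the condition.

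H3K9me3 is the histone mark of constitutive heterochromatin, which is compact, poor in transcription and often held at the nuclear lamina in domains that span megabases. Interferon binds its receptors at the cell surface and switches on genes whose promoters hold an interferon-stimulated response element. MX1 and MX2 are such genes and encode dynamin-like GTPases that block the replication of viruses. The lists record where domains were called, not transcription, so they carry no information on whether these genes were expressed.

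A single H3K9me3 domain spanned chr21:39400001-41200000 on hg38 in 4 of 4 libraries. It was 1.8 Mb long, or 9 of the 200 kb bins in which domains were called. Both control lists and both RAB5A lists gave the same start and the same end. RAB5A minus control was 0 kb for the telomeric edge and 0 kb for the centromeric edge, with no spread between replicates (SD 0 kb, n = 2 per condition). As every edge falls on a multiple of 200 kb, a displacement smaller than 1 bin would not be visible.

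The domain ended inside BACE2 and 162 kb before MX2 in control and in RAB5A cells alike. In each of the 4 lists 3 of the 7 members shared at least 1 bp with a domain, and RAB5A minus control was 0 members. Among all protein-coding genes this share was 7.39% and 7.73% in the control lists and 7.4% and 8.32% in the RAB5A lists (ab176916 and ab8898), and 7.13% had it in 4 of 4 lists. On chromosome 21 alone it was 6.82% and 6.36% in control and the same, 6.82% and 6.36%, in RAB5A cells, over 220 genes. Counted by transcription start it was 7.2% and 7.57% in control and 7.21% and 8.15% in RAB5A cells. Nothing is read from these shares, since the members were picked by their position.

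**Figure D1:**
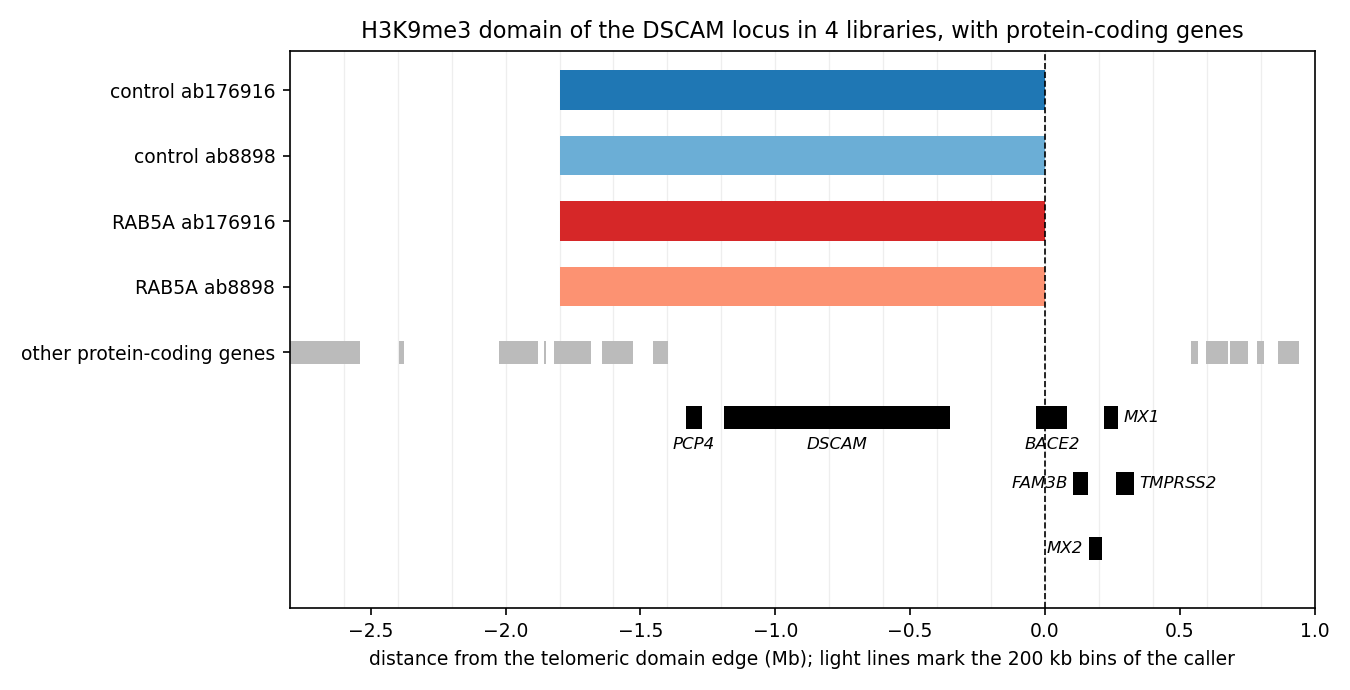
Position of the H3K9me3 domain (coloured bars, 1 per library) and of protein-coding genes (black, the 7 members; grey, others) against the distance from the telomeric domain edge in Mb. The 4 bars begin and end at the same place, with PCP4 and DSCAM whole inside, BACE2 across the edge and FAM3B, MX2, MX1 and TMPRSS2 beyond it.

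PCP4 encodes a small neuronal protein that binds calmodulin. Its gene body (chr21:39867438-39929397, plus strand) was 100% inside the domain in 4 of 4 libraries, beginning 467 kb from the centromeric edge. DSCAM encodes an immunoglobulin superfamily adhesion molecule of the nervous system, named after Down syndrome. Its body (chr21:40010999-40847158, minus strand) extends over 836 kb and 33 exons of the canonical transcript. All 33 exons and 100% of the gene lay inside the domain with either antibody, in control and in RAB5A cells. Gene bodies lay whole inside a domain for 7.06% and 7.42% of protein-coding genes in the control lists and for 7.07% and 8.01% in the RAB5A lists. The DSCAM transcription start was 352.8 kb inside the telomeric edge.

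BACE2, an aspartyl protease related to the enzyme that cleaves the amyloid precursor, was the member that straddled the edge. Of its body (chr21:41167801-41282530, plus strand, 115 kb) 28.1% lay inside the domain in 4 of 4 libraries. The edge fell in intron 1 (chr21:41168576-41226265), 32.2 kb after the start of the gene and 26.3 kb before the next exon. Hence exon 1 of 9 and the transcription start were inside, and the other exons were outside. Genes partly inside a domain were rare, with 0.33% and 0.31% of all protein-coding genes in the control lists and 0.335% and 0.315% in the RAB5A lists.

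The other 4 members lay beyond the edge in every library, at the same distance in control and RAB5A lists. FAM3B, a secreted protein of a cytokine-like family, began 104 kb from the domain (chr21:41304212-41357727, plus strand). MX2 began 162 kb from it (chr21:41361999-41409393, plus strand), so that its start was in the first 200 kb bin outside the domain. MX1 began 220.02 kb from it (chr21:41420020-41470071, plus strand), in the next bin. TMPRSS2, a serine protease of the cell membrane, lay farthest from it, at 264 kb (chr21:41464300-41531116, minus strand).

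These genes are closely packed. The space between FAM3B and MX2 was 4.27 kb and that between MX2 and MX1 was 10.6 kb. MX1 and TMPRSS2 are transcribed towards each other, and their annotated bodies overlap. Between DSCAM and BACE2, in contrast, the domain held 321 kb without a protein-coding gene. By position alone, an edge 1 bin farther out would cover 100% of BACE2 and FAM3B, 80.2% of MX2 and 0% of MX1, and an edge 2 bins farther out would cover all 7 members. No list showed either.

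A place just outside a domain was uncommon. Genes outside domains with the nearest domain within 200 kb made up 1.6% and 1.39% of all protein-coding genes in the control lists and 1.62% and 1.48% in the RAB5A lists. In all 4 libraries at once this held for 210 of 20007 genes (1.05%), FAM3B and MX2 among them. With the limit at 300 kb, which takes in MX1 and TMPRSS2, the shares were 2.28% and 2.08% in control and 2.28% and 2.17% in RAB5A cells, and 333 genes (1.66%) met it in all 4 libraries.

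The promoters of DSCAM, inside the domain in 4 of 4 libraries, and of MX1, outside it in 4 of 4, are shown to set the sequences on either side of the edge next to each other. Sequences and transcription starts are from RefSeq (GRCh38.p14), where DSCAM has 1 start and MX1 has 3, and 2 of the 7 members matched. Each line gives 250 bases before the start and the 30 bases from the start onward, 5′ to 3′ on the strand of the gene. Capitals mark matches to 1 spelling of the core of the interferon-stimulated response element, searched on both strands. It is GAAA, any 2 bases and again GAAA, and other spacings were not searched. The windows were chr21:40847129-40847408 for DSCAM (minus strand), and chr21:41420308-41420587, chr21:41425989-41426268 and chr21:41431800-41432079 for the MX1 starts 1 to 3 (plus strand).
DSCAM: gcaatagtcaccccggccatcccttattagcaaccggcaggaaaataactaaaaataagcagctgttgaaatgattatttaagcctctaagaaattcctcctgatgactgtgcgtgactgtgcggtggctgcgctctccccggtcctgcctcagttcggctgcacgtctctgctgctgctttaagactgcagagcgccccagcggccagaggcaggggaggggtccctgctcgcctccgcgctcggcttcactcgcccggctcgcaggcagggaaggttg
MX1 start 1: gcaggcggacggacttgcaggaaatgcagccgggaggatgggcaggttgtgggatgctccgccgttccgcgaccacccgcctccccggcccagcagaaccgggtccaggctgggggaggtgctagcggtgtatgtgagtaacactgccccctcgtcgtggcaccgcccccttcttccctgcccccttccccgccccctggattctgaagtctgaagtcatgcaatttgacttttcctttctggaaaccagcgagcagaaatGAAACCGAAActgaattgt
MX1 start 2: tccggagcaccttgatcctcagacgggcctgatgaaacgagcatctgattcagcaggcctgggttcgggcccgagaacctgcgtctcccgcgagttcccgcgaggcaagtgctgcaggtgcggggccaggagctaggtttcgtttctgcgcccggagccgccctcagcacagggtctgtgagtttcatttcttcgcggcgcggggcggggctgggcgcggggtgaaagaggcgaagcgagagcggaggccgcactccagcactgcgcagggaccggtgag
MX1 start 3: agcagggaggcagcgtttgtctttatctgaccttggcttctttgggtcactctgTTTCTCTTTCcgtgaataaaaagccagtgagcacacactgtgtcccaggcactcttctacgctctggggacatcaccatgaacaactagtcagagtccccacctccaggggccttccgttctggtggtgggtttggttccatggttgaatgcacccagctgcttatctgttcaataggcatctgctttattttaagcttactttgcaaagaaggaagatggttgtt

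The MX1 starts were 220.56, 226 and 232 kb beyond the domain edge. Start 1 had a match beginning 11 bases after the start base, and start 3 had a match on the opposite strand that began 196 bases before its own. Start 2, which is the start of the canonical transcript, and DSCAM had 0 matches to this spelling in these windows. The start 2 window does hold tttcgtttc and tttcatttc, repeats with fewer than 2 bases between them, which the search left out. A lack of matches is therefore not a lack of the element. Of 35116 promoter windows of the same length 3.39% held a match, and 42 of the 75 windows that belong to interferon-induced genes did. GC content was 61.1%, 66.8% and 48.6% in the MX1 windows and 58.2% in the DSCAM window, with 17, 28 and 4 CpG dinucleotides against 17. A match is a description of the letters and not evidence of binding.

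Around the members, 6 protein-coding genes lay whole inside the domain in 4 of 4 libraries, namely LCA5L, SH3BGR, B3GALT5, IGSF5, PCP4 and DSCAM. B3GALT5 is a glycosyltransferase and IGSF5 a junctional adhesion protein. The genes across an edge were BACE2 on the telomeric side and GET1 and its read-through GET1-SH3BGR on the centromeric side. Within 1 Mb of the domain, 5 further genes lay on the centromeric side (ERG, ETS2, PSMG1, BRWD1 and HMGN1) and 10 on the telomeric side, including RIPK4, PRDM15, C2CD2, ZBTB21, UMODL1 and ABCG1. Each of these 24 genes had the same coverage and the same distance in the 4 libraries. The domain also overlapped 10 annotated lncRNA genes, with DSCAM-AS1 and DSCAM-IT1 inside DSCAM and PLAC4 inside BACE2, and the miRNA genes MIR6508, MIR4760 and MIR3197.

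The fixed edges of the locus were set against the other domains. Of 78 domains of the control ab176916 list, 71 had an overlapping domain in each of the other lists. Among these 71, 64.8% had the same end in 4 of 4 libraries, 64.8% had the same start, and 42.3% (30 domains) had both. The median range of the end position was 0 kb. An unmoved edge was therefore common in these lists and is not particular to the DSCAM domain.

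Chromosome 21 (46.7 Mb) held 3 domains in each library, and domains covered 23.1% and 25.3% of it in control and 25.7% and 26.5% in RAB5A cells. The most centromeric of them, chr21:7800001-11000000, also had the same edges in 4 of 4 libraries. The middle domain did not. It spanned chr21:17600001-23400000 in the control ab176916 library, chr21:17800001-24600000 in the control ab8898 library, chr21:17600001-24600000 in the RAB5A ab176916 library and chr21:17800001-25200000 in the RAB5A ab8898 library. Its start followed the antibody, and its end varied by up to 9 bins. No domain was called between the DSCAM domain and the chromosome end, 5.51 Mb away, and the nearest on the other side was 14.2 to 16 Mb distant.

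Outside the DSCAM domain, H3K9me3 covered 9 and 10 Mb of chromosome 21 in the control libraries and 10.2 and 10.6 Mb in the RAB5A libraries. The RAB5A values were above both control values. The control mean was 9.5 ± 0.707 Mb and the RAB5A mean 10.4 ± 0.283 Mb (SD over 2 libraries), so that RAB5A exceeded control by 0.9 Mb (exact two-sided permutation test, p = 0.333, the smallest that 4 libraries allow, so that 0.05 cannot be reached). With the libraries paired by antibody, the difference was 1.2 Mb for ab176916 and 0.6 Mb for ab8898 (exact sign-flip test of the pairing, p = 0.5, the smallest possible). It was 0.4 Mb without the control ab176916 library and 1.4 Mb without the control ab8898 library. The whole difference came from the edges of the middle domain, and the DSCAM domain added 0 Mb to it.

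**Figure D2:**
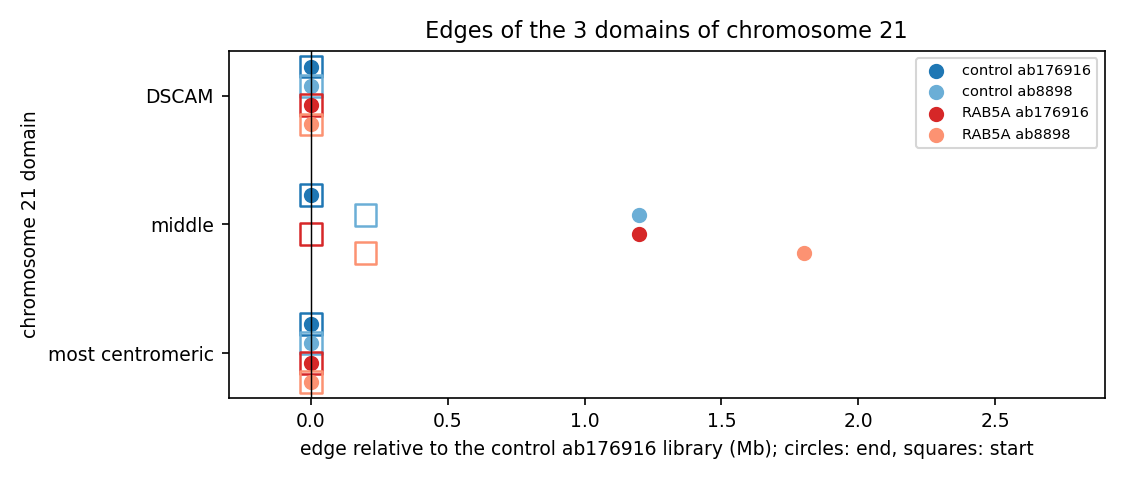
Edges of the 3 domains of chromosome 21 in each library, in Mb relative to the control ab176916 library (circles, end; squares, start; colours, libraries). The DSCAM domain and the most centromeric domain stayed at 0 in 4 of 4 libraries, while the end of the middle domain lay 1.2 to 1.8 Mb farther out in the other libraries.

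The DSCAM domain was among the weaker calls of each list. The authors' score has no stated unit and is compared only within a list. It was 8.26 in the control ab176916 list, where it ranked 8 of 78 from the lowest. It was 9.51 in the control ab8898 list (6 of 76), 8.5 in the RAB5A ab176916 list (14 of 79) and 9.35 in the RAB5A ab8898 list (9 of 76). The lowest scores called in these lists were 7.58, 8.89, 7.35 and 8.34, and the lower quartiles were 9.68, 10.7, 9.34 and 10.2. The domain thus stood below the lower quartile in 4 of 4 lists, and with domains under the quartile left out 0 of the 7 members were in a domain in any library.

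The domain was shorter than the median of 2.4 Mb in each list. Per 200 kb bin its score was 0.918, 1.06, 0.944 and 1.04 in the same order of libraries, against list medians of 1.07, 1.27, 1.05 and 1.26. By this measure it ranked 25 of 78, 27 of 76, 25 of 79 and 25 of 76 from the lowest.

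**Figure D3:**
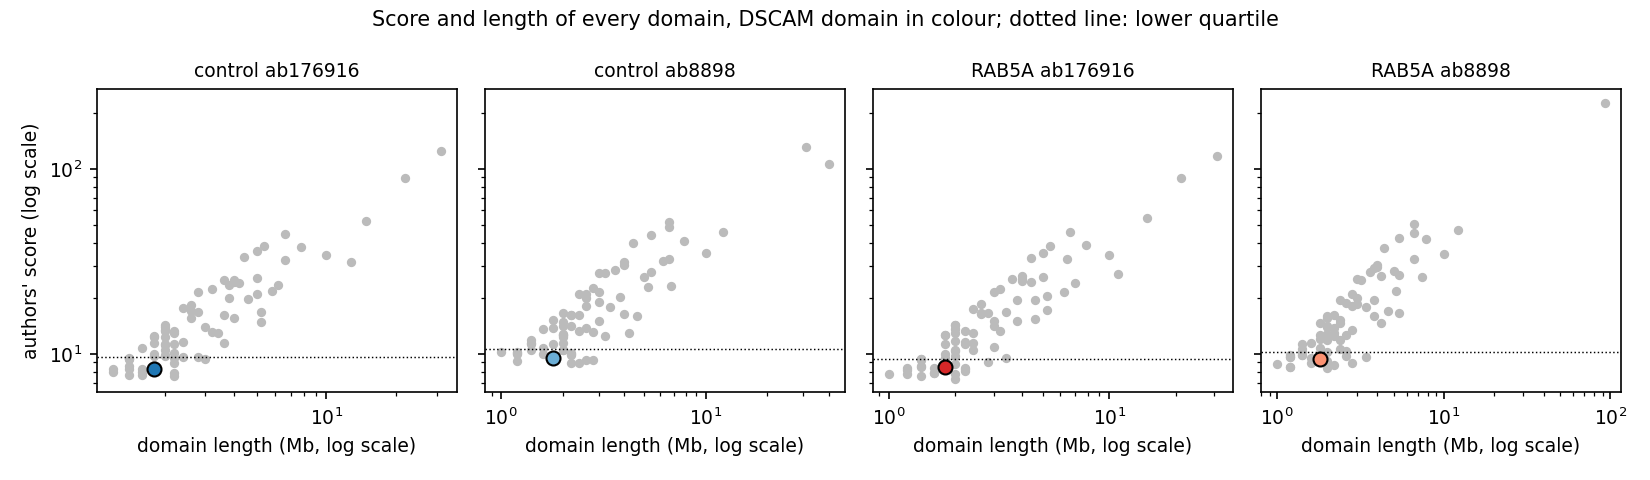
Authors' score against domain length for every domain of each library (log scales; grey points), with the DSCAM domain in colour and the lower quartile of the scores as a dotted line. The coloured point lies below the dotted line in each of the 4 panels, at a length of 1.8 Mb.

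GC content was higher beyond the telomeric edge than inside the domain on average, without a step at the edge itself. Inside the domain, GC content was 42.1% ± 1.80 (SD over 9 bins of 200 kb, range 39.6% to 44.6%). It was 48.3% ± 1.93 over the 5 bins on the telomeric side (range 45.7% to 50.2%), and the ranges did not overlap. On the centromeric side it was 43.2% ± 1.63 (5 bins, range 41.4% to 44.9%), a range that overlapped the one inside. CpG dinucleotides numbered 9.88 per kb inside, 17.7 per kb on the telomeric side and 12.4 per kb on the centromeric side. Neighbouring bins are not independent, and no test was made.

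The lowest GC content, 39.6% and 39.8%, was in 2 bins that hold part of DSCAM and no protein-coding transcription start. The bin at the telomeric edge, which holds the BACE2 start, had 44.6%, and the next, with the starts of FAM3B and MX2, had 45.7%. Larger differences between neighbouring bins lay 1 bin inside the edge (41.7% to 44.6%) and 2 bins beyond it (47.1% to 49.9%). There were 7 protein-coding starts in the 9 bins inside, against 10 in the 5 telomeric bins and 7 in the 5 centromeric bins. Over the autosomes, bins called in 4 of 4 libraries had 41.3% ± 4.27 GC (881 bins) and bins called in none had 40.9% ± 4.88 (12738 bins). These means differed by less than 1 SD of either set of bins. On chromosome 21, however, the bins of the other domains had 37.1% ± 3.61 GC (42 bins) and bins called in none had 42.4% ± 5.46 (145 bins), so that the mean inside the DSCAM domain was close to that of the uncalled bins of its chromosome.

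**Figure D4:**
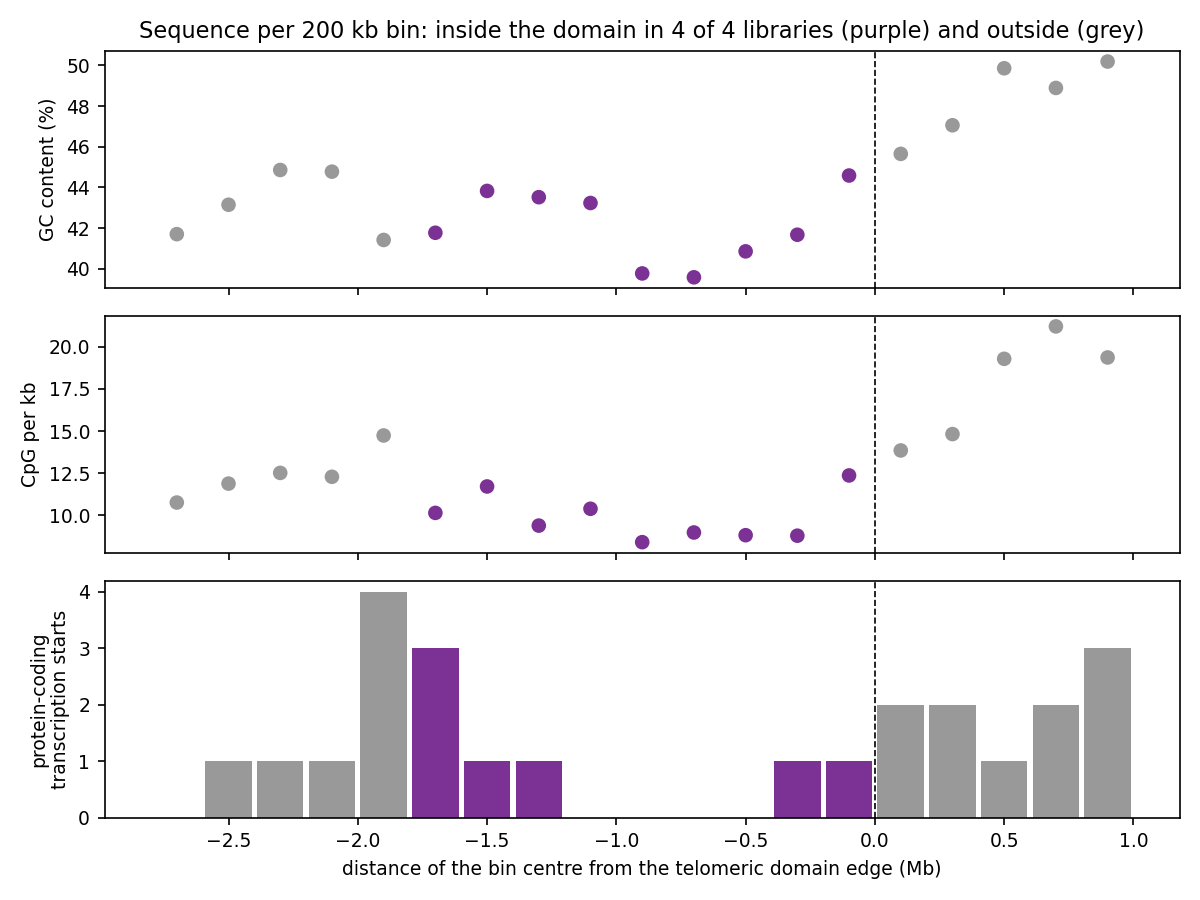
GC content, CpG dinucleotides per kb and number of protein-coding transcription starts in 200 kb bins against the distance of the bin centre from the telomeric edge (purple, inside the domain in 4 of 4 libraries; grey, outside). GC content was 44.6% in the last bin inside and 45.7% to 50.2% in the 5 bins beyond the edge.

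DSCAM was set beside the 5 protein-coding genes nearest to it in length. TMEM132D was also 100% inside a domain in 4 of 4 libraries. RABGAP1L, MDGA2 and ZBTB20 were at 0% in 4 of 4 libraries and at least 18.8 Mb from a domain. PTPRM was 3.95% inside a domain in the control ab176916 library and at 0% in the other 3, with the nearest domain 0.167 Mb away. Of 130 protein-coding genes of 800 kb or longer, DSCAM included, 24 overlapped a domain in 4 of 4 libraries, against 7.13% of all protein-coding genes. A longer body meets an overlap of 1 bp more readily, so nothing is read from this count.

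MX2 and MX1 were chosen for their place near a domain. That they were among the interferon-induced genes closest to one was therefore set by the choice. Of 69 such genes, 2 overlapped a domain in each of the 4 libraries, against 7.39% to 8.32% of all protein-coding genes. These were CMPK2, a mitochondrial nucleotide kinase, and its neighbour RSAD2, the antiviral enzyme viperin. Both were 100% inside chr2:3800001-8800000, a domain of 5 Mb that had the same edges in 4 of 4 libraries and, at rank 59 to 67 from the lowest, a score in the upper part of each list. MX2 was the nearest gene outside a domain and the sole gene of the list within 200 kb of one without overlapping it, in 4 of 4 libraries. Among all protein-coding genes 1.05% had such a place in 4 of 4 libraries. As MX2 was picked for its place, nothing is read from the count of 1 of 69. MX1 followed, and then SHFL, an antiviral RNA-binding protein, at 286 kb in 4 of 4 libraries.

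As a whole the list was not nearer to domains than other genes. The median distance, over list genes on chromosomes with a domain, was 27.04 and 33.2 Mb in control and 33.0 and 33.4 Mb in RAB5A cells, against 12.2, 11.3, 12.3 and 15.01 Mb for all protein-coding genes in the same order of libraries. Of 69 genes, 7 were on chromosomes without a domain in any list, and 54 were more than 1 Mb from a domain in every list that had one on their chromosome, near the 80.9% of all protein-coding genes of which this held. In or within 1 Mb of a domain in any library were 15.3% of all protein-coding genes. None of the 18 genes of a cytosolic DNA sensing list, which includes CGAS, STING1, TBK1 and IRF3, and none of 5 interferon receptor genes, of which IFNAR1, IFNAR2, IL10RB and IFNGR2 are on chromosome 21, was within 1 Mb of a domain in any library. In lists this small such counts can be near the background, and nothing is read from them.

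**Figure D5:**
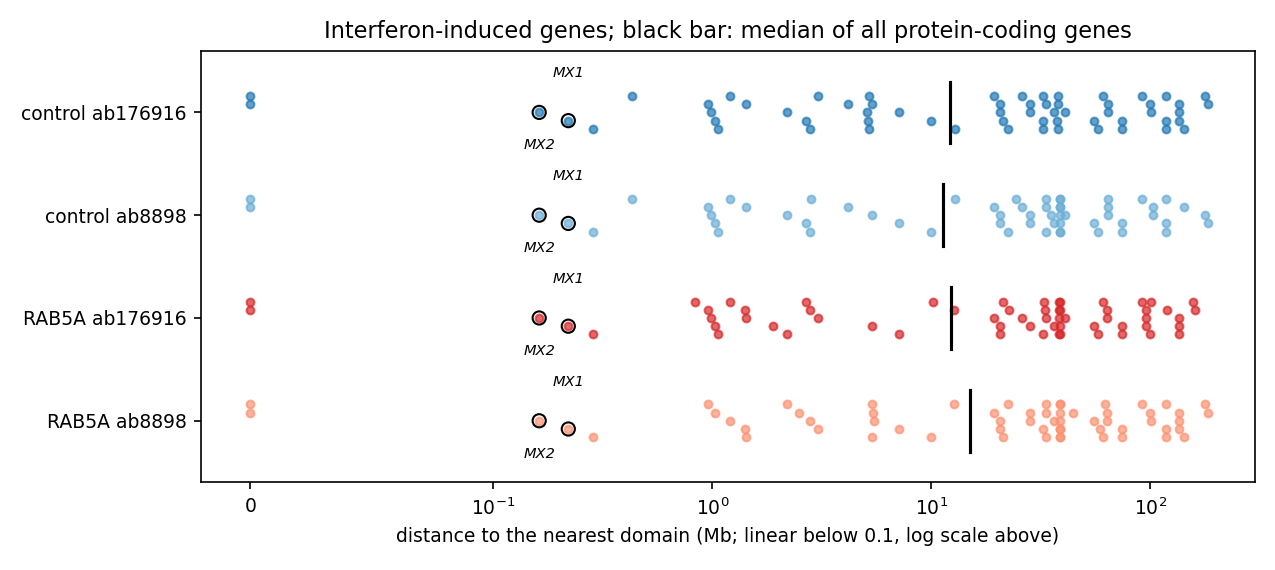
Distance of each interferon-induced gene to the nearest domain in Mb (linear below 0.1, log scale above) in the 4 libraries, with MX2 and MX1 circled and the median of all protein-coding genes as a black bar (genes on chromosomes without a domain in a list are not shown there). The points at 0 are CMPK2 and RSAD2, and MX2 and MX1 follow at 0.162 and 0.220 Mb in each library.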

How the data were processed

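H3K9me3 ChIP-seq domains were analysed in 4 libraries (2 control, 2 RAB5A), and the 2 input samples were not analysed here. To make the lists, the authors used Trimmomatic (v0.39) for trimming, BWA (v0.7.17-r1188) for alignment to hg38, Picard (v2.22) for duplicates and Samtools (v1.9) to drop alignments with a mapping quality under 1, and then EDD (v1.1.19) for domains of each library (200 kb bins, gap penalty 25, informative fraction 0.98). The deposited lists give each domain's position and the authors' score, which has no stated unit. They hold no counts, so the depth of each library is unknown and no counting error can be given.

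GENCODE 44 (hg38) supplied the gene bodies. Overlap (at least 1 bp), covered share and distance to the nearest domain came from scripts in Python 3.11.15 with NumPy 2.4.6 and pandas 2.3.3, whose interval steps were tested on simulated data. The locus domain was the domain with the longest overlap with DSCAM. Named genes were the members, protein-coding genes within 1 Mb, genes of the 3 lists near domains and the 5 genes nearest to DSCAM in length. SHFL and, in the closing section, IRF9, OASL, the OAS cluster, IFIT1 and EIF2AK2 were named after their values were seen. The members and lists were chosen with earlier results of these data known. DDX58 is an older symbol of RIGI, and the gene was counted once.

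In the labels a replicate number marks an antibody, and the alternative with pairing matched control and RAB5A libraries of 1 antibody. Across the 1736 bins that any list called, such partners deviated together from their group means, with a Pearson's r of 0.316, given as a description across bins. Alternatives were merging domains closer than 400 kb, domains scoring no less than their list's lower quartile, a minimum length of 1 Mb, other definitions of overlap, the canonical transcript, the pairing, and each library left out.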

Additional observations from a re-analysis of the deposited data

How the results depend on the processing

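Of 61 alternative values for 8 results, 59 stayed within the replicate spread of the reported value (or within 1.5 times it, for counts) on the same side of any threshold, 2 moved further and 0 changed sign. This tally is not a measure of stability. Most results had the same value in 4 of 4 libraries, so leaving a library out could not change them. The score limit counts as unchanged in it because RAB5A minus control stayed at 0. With the canonical transcript in place of the whole gene, the distance from the domain edge was 162.03 kb for MX2 and 226 kb for MX1, by construction of a later start. The stricter score limit removed the DSCAM domain from 4 of 4 lists, so no edge and no distance could be given under it, and 0 of 7 members and 0% of DSCAM were then in a domain in each condition. By transcription start 3 members were in a domain in each library, with at least 50% of the body required 2, and with 200 kb on each side 5. The number of interferon-induced genes in a domain was 2, and 3 with 200 kb on each side. Leaving out each library in turn gave 0.4 to 1.4 Mb for the chromosome 21 difference outside the locus, and pairing by antibody left it at 0.9 Mb (exact sign-flip test, p = 0.5). The pairing changed no call, and with 2 libraries per condition these p-values say nothing about stability. The 200 kb bins limit every position given here, and the lists show neither signal within a domain nor regions too weak to be called.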

Other observations

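Some interferon-induced genes away from chromosome 21 differed between libraries in their distance to the nearest domain, unlike MX2 and MX1. IRF9, the DNA-binding subunit of the interferon-activated complex, was 0.432 Mb from a domain in both control libraries, 0.832 Mb in the RAB5A ab176916 library and 1.03 Mb in the RAB5A ab8898 library. OASL, a relative of the oligoadenylate synthetases, was 4.16 Mb from a domain in both control libraries and 1.42 Mb in both RAB5A libraries. The domain nearest OASL in the RAB5A lists was a weak call, with scores of 7.83 (ab176916) and 8.53 (ab8898). The lowest scores of these lists were 7.35 and 8.34. The oligoadenylate synthetase genes OAS1, OAS3 and OAS2 were 1.07, 1.02 and 0.988 Mb from a domain in 3 libraries, and 5.47, 5.42 and 5.39 Mb in the RAB5A ab8898 library. In the RAB5A ab176916 list the domain nearest them had the lowest score of that list, 7.35. In the control lists the same domain scored 11.2 (ab176916) and 12.7 (ab8898), above the lower quartiles of 9.68 and 10.7 of those lists. It was not called in the RAB5A ab8898 list. Other shifts, some larger, did not follow the condition. IFIT1 was 5.19 Mb from a domain in the control ab176916 library and 38.8 Mb in the others. EIF2AK2 was 1.9 Mb from one in the RAB5A ab176916 library and 28.3 Mb in the others. The genes named besides MX2 and MX1 were picked after the values were seen. None of them overlapped a domain in any library, and the differences were not tested.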
